A study of Homo sapiens with 21 samples.

Results

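Cholesterol is built in the endoplasmic reticulum through the mevalonate pathway, in which acetyl-CoA becomes mevalonate, isoprenoid units, squalene, lanosterol and, by removal and rearrangement of single groups, cholesterol. The SREBP transcription factors switch on the enzymes of this pathway and of fatty acid synthesis when membrane sterol is low. The escort protein SCAP then carries SREBP to the Golgi, where it is cut and released, while INSIG proteins hold SCAP and SREBP back when sterol is plentiful. Excess sterol, through its oxysterol derivatives, activates LXR, which raises the cholesterol exporters ABCA1 and ABCG1 and the ligase MYLIP, also called IDOL, which marks lipoprotein receptors for degradation. The brain makes its own cholesterol, since lipoproteins of the blood do not cross into it freely.

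The genes described here are 34 named members of this system, listed with earlier results of these data known, among the 61268 features of a gene count table. They comprise 18 sterol enzymes, 7 enzymes of fatty acid synthesis, elongation and desaturation, 4 regulators (SREBF1, SREBF2, INSIG1 and INSIG2) and 5 genes of sterol movement (STARD4, NPC1, ABCA1, ABCG1 and MYLIP). All 34 were found and all passed the filter on low counts. The lowest count of any member in any library was 60 reads, for MYLIP, and the highest was 67868 reads, for SCD.

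Polyadenylated RNA was sequenced from H9, a human embryonic stem cell line, steered towards a lateral ganglionic eminence (LGE) fate, the embryonic source of striatal neurons. Every library came from cells with a TRE3G promoter, which responds to doxycycline, driving wild-type GSX2 with a doubled FLAG tag. GSX2 is a homeobox transcription factor of LGE progenitors. The Dox groups received 100 ng/mL doxycycline for 12 h starting at day 10 and were collected at 12, 24 and 48 h. The NoDox groups were collected at the same times without doxycycline, and 1 further group was collected at day 10. Thus the 12 h Dox cells were taken as the exposure ended, and the 24 h and 48 h Dox cells after it. All 7 groups shared the media, with the inhibitors LDN193189, SB431542 and XAV939 first, LDN193189 and SB431542 next, and then IWP2 with Activin A. Each group had 3 libraries. Separate cultures are not stated for the replicates. A p-value here therefore reflects library-to-library spread alone, which may be technical. As no cells without the transgene were given doxycycline, effects of the drug and of GSX2 cannot be told apart in a Dox comparison.

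Total counts ran from 14.4 to 33.8 M reads per library, and values are given as CPM, counts per M reads after TMM scaling. Reads on the transgene ran from 745 to 951 CPM in the 12 h Dox libraries, from 13.6 to 25.2 CPM in the 24 h Dox libraries and from 0.877 to 0.970 CPM in the 48 h Dox libraries, against at most 0.523 CPM elsewhere. Markers of telencephalic progenitors were present in every group, with a sum over 12 genes from 2630 to 10486 CPM. Of 6 endoderm and liver markers, a lineage rich in sterol synthesis, the sum was at most 5.30 CPM in any library. Replicate 3 of the 12 h Dox group stood apart from its group, where chi-square over degrees of freedom was 26.8 and 16.7 against its partners, and so did day 10 replicate 1, with 10.8 and 14.5. Other replicate pairs gave 1.85 to 5.67, and counts with and without those libraries are given beside the results they touch.

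Promoter sequences of the members that turned out to move most, and of SREBF2, are shown because SREBP acts at sterol regulatory elements beside CCAAT boxes bound by NF-Y. They are RefSeq sequences on GRCh38.p14, read 5′ to 3′ on the gene's strand, from 250 bases before the RefSeq start down to that start or to the first base of the gene in the count table. Capitals mark matches to the sterol element TCACNCCAC or to CCAAT on either strand, which reads ATTGG on the other. In order, they lie at chr5:43313513-43313662 (minus strand), chr7:155297628-155297775 (plus), chr5:111512591-111512785 (minus), chr22:41832855-41833104 (plus) and chr6:16128836-16129085 (plus).
HMGCS1: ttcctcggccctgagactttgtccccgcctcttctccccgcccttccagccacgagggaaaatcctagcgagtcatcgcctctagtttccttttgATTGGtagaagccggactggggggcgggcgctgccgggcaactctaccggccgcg
INSIG1: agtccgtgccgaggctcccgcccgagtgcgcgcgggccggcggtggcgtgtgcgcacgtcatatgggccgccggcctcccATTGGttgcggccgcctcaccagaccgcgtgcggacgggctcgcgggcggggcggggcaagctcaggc
STARD4: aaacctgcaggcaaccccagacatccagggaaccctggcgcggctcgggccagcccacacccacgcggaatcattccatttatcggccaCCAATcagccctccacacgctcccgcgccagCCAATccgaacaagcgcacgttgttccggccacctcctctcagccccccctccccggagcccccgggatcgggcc
SREBF2: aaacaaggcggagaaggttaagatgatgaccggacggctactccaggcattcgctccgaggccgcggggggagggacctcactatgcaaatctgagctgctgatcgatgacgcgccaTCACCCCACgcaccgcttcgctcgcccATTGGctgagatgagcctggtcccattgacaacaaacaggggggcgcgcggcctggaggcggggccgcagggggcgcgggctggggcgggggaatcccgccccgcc
MYLIP: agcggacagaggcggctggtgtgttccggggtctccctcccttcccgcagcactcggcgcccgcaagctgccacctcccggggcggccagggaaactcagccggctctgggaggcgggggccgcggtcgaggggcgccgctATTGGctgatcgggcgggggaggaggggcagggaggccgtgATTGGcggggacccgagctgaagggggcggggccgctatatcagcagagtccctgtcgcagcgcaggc
The STARD4 and MYLIP stretches each held a pair of CCAAT boxes, those of MYLIP inverted. HMGCS1 had a further inverted CCAAT box at -100, just past its printed stretch. The SREBF2 stretch held the sole match to the sterol element as spelled, with an inverted CCAAT box following it. The SREBF2 stretch lies within an exon of the antisense gene SREBF2-AS1, on the opposite strand.

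RefSeq promoters of 300 bases (250 before the start and 50 after it) were found for 29 of the 34 members, giving 39 promoters. CCAAT or its complement was present in 25 of them (64.1%), against 34.6% of all 35116 promoters of this length. It was found in promoters of most sterol enzymes, among them MVK, MSMO1 and NSDHL with several copies each, and copies on opposite strands overlapped in IDI1 and NSDHL. The sterol element was present in 1 promoter (2.56%), against 1.13% of all. The E-box CACGTG, which SREBP can also bind, was present in 5 (12.8%, against 7.26%). TAATTA, a core that many homeodomain proteins bind, was present in the FDPS promoter only (2.56%, against 4.84%). The DR4 repeat that LXR binds, AGGTCA given again after 4 free bases, was present in none, against 0.0199% of all. These shares are descriptions of the letters in the windows, several members had more than 1 promoter, and some of those overlapped.

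**Figure D1:**
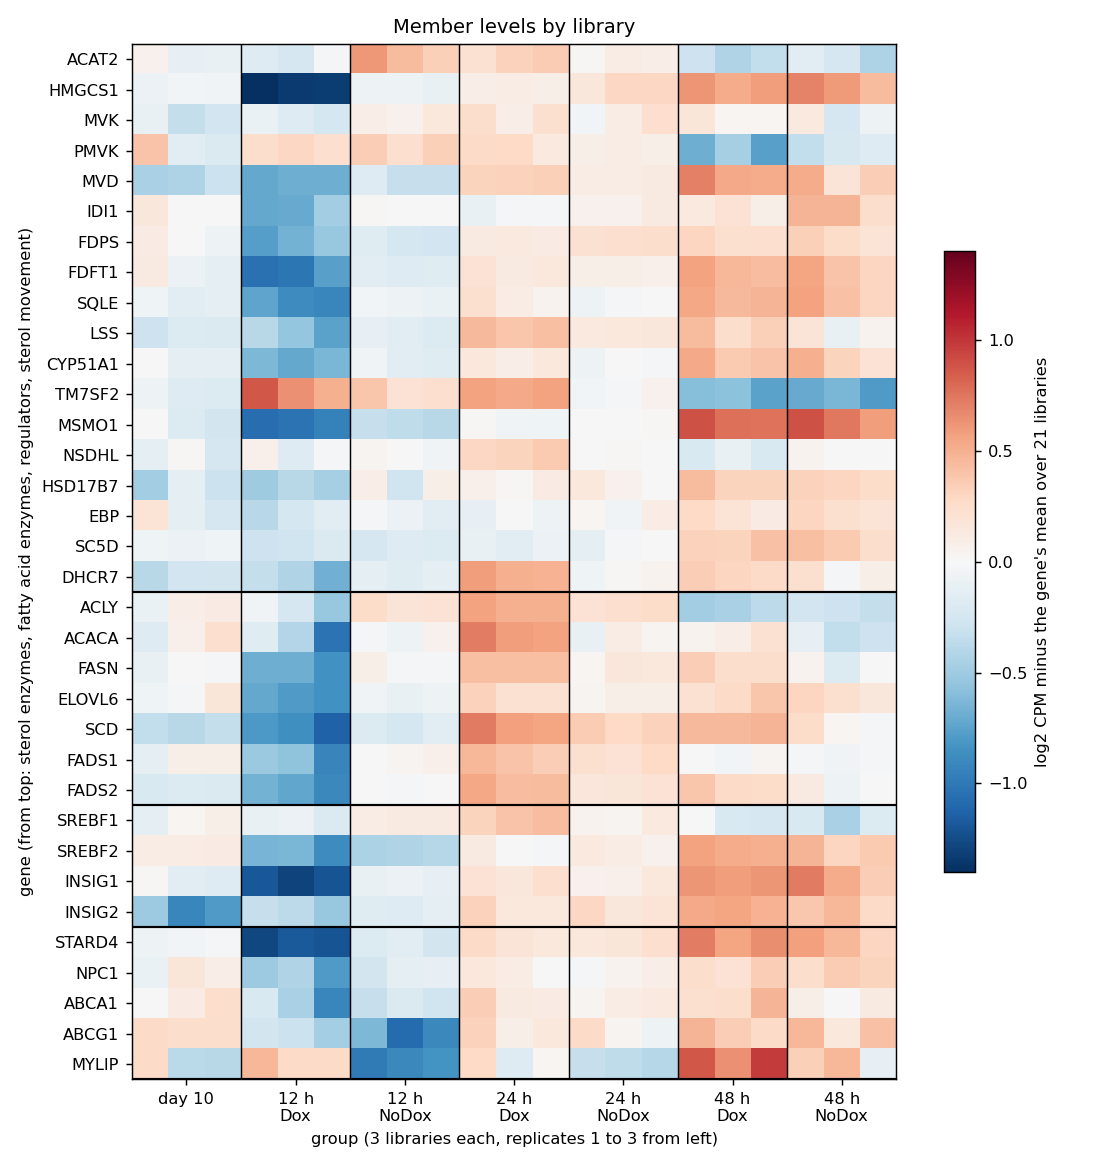
Level of each of the 34 genes in each of the 21 libraries, as log2 CPM minus that gene's mean over all libraries (colour scale), with genes in rows by role and libraries in columns by group. The 3 columns of the 12 h Dox group are mostly blue, deepest for HMGCS1, INSIG1 and STARD4, while MYLIP and TM7SF2 are red there.

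At 12 h, 26 of the 34 genes were lower in Dox than in NoDox cells and 3 were higher, by edgeR's quasi-likelihood test at an adjusted p under 0.05. Among all genes tested, 19.9% were lower and 19.8% higher. The median log2 fold change of the members was -0.43, against 0.01 for all genes tested. Of the sterol enzymes 13 of 18 fell and 1, TM7SF2, rose. All 7 fatty acid enzymes and all 4 regulators fell, and of the genes of sterol movement STARD4 and NPC1 fell while ABCG1 and MYLIP rose. The Dox libraries lay wholly below the NoDox libraries for 26 members and wholly above for 3, against 23.1% and 23.7% of all genes tested. Without Dox replicate 3 the counts were again 26 and 3, with a median of -0.39.

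HMGCS1, the synthase that makes HMG-CoA at the entry to the mevalonate pathway (chromosome 5, 43287470 to 43313512, hg38), fell most of all members. It had 452, 470.3 and 474 CPM in Dox libraries, against 1131, 1135 and 1110.5 CPM in NoDox libraries. The Dox values lay far below every NoDox value, and the log2 fold change was -1.27 ± 0.06 (approximate SE, adjusted p = 5.65e-16). Day 10 cells, before the split, had 1123, 1165 and 1155 CPM, close to the NoDox level.

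INSIG1, which retains SCAP and SREBP in the endoplasmic reticulum and is itself an SREBP target (chromosome 7, 155297776 to 155310235), had 101, 93.9 and 99.7 CPM in Dox libraries, against 214, 218 and 213 CPM in NoDox libraries. All Dox libraries were below all NoDox libraries (log2 fold change -1.13 ± 0.07, adjusted p = 1.45e-13). STARD4, a soluble carrier that moves cholesterol between membranes (chromosome 5, 111496033 to 111512590), had 99.5, 106 and 104 CPM in Dox libraries, against 210.2, 216 and 200.1 CPM in NoDox libraries. These groups did not overlap either, with a log2 fold change of -1.02 ± 0.07 (adjusted p = 1.59e-13).

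SQLE, the squalene epoxidase that commits squalene to sterols, had 140.3, 128 and 125 CPM in Dox libraries, against 229, 224 and 221 CPM in NoDox libraries. The highest Dox value lay well below the lowest NoDox value (log2 fold change -0.78 ± 0.07, adjusted p = 7.31e-11). FDFT1, which joins farnesyl units into squalene, fell as well, with a log2 fold change of -0.76 ± 0.08. The other sterol enzymes that fell ran from MVK, mevalonate kinase, at -0.27 ± 0.09 to MSMO1, a C4-methyl oxidase, at -0.66 ± 0.07. They included IDI1, ACAT2, CYP51A1, HSD17B7, FDPS, MVD, LSS and DHCR7. PMVK (-0.05 ± 0.10), NSDHL (-0.03 ± 0.07), SC5D (-0.05 ± 0.06) and EBP (-0.17 ± 0.08) did not pass the test.

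TM7SF2, a sterol C14-reductase (chromosome 11, 65111845 to 65116384), was the sterol enzyme that rose at 12 h. It had 81.6, 69.9 and 63.1 CPM in Dox libraries, against 58.8, 51.5 and 52.7 CPM in NoDox libraries. The groups did not overlap, although the Dox libraries were spread widely (log2 fold change 0.40 ± 0.08, adjusted p = 9.22e-05). It shares 18 exonic bases with VPS51 on the same strand.

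The fatty acid enzymes all fell, with a median log2 fold change of -0.71. SCD, the desaturase that makes oleate (chromosome 10, 100347233 to 100364826), had 883, 853 and 705 CPM in Dox libraries, against 1356, 1299.8 and 1394 CPM in NoDox libraries. The groups were apart, and Dox replicate 3 was the lowest (log2 fold change -0.73 ± 0.08, adjusted p = 7.87e-09). FASN, the fatty acid synthase, FADS1 and FADS2, the desaturases of polyunsaturated fatty acids, and ELOVL6, an elongase, fell with log2 fold changes of -0.75, -0.70, -0.75 and -0.71. ACLY, which supplies cytosolic acetyl-CoA, and ACACA, which turns it into malonyl-CoA, each had a log2 fold change of -0.48. ACACA was the most variable, with 167, 141 and 91.1 CPM in Dox libraries, against 184, 178 and 195 CPM in NoDox libraries, and its adjusted p was 0.0178. It did not pass without NoDox replicate 3, at -0.45, or with no filter on low counts (adjusted p = 0.0682). Without Dox replicate 3 the log2 fold change was -0.27, still past the threshold.

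Both SREBP genes fell at 12 h with TMM scaling, and neither passed with library totals only, at -0.12 for SREBF2 (adjusted p = 0.128) and -0.07 for SREBF1 (adjusted p = 0.437). SREBF2, which encodes the SREBP most tied to cholesterol synthesis (chromosome 22, 41833105 to 41907306), had 373, 376 and 318 CPM in Dox libraries, against 430.2, 437 and 446 CPM in NoDox libraries. The groups were apart (log2 fold change -0.30 ± 0.07, adjusted p = 0.00047). SREBF1, which encodes the SREBP-1 forms that favour fatty acid genes (chromosome 17, 17810399 to 17837002), had 97.6, 99.2 and 91.2 CPM in Dox libraries, against 113, 115 and 115 CPM in NoDox libraries (log2 fold change -0.25 ± 0.07, adjusted p = 0.00573). INSIG2, the second INSIG, fell by 0.24 ± 0.08 on the log2 scale, a call lost without Dox replicate 3, at -0.18.

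The LXR-responsive members did not move as one. MYLIP (chromosome 6, 16129086 to 16148248) had 8.37, 7.31 and 7.29 CPM in Dox libraries, against 3.06, 3.24 and 3.39 CPM in NoDox libraries. Every Dox library lay above every NoDox library, by 2.37-fold in the fit (log2 fold change 1.25 ± 0.17, adjusted p = 8.5e-07). ABCG1, a cholesterol exporter (chromosome 21, 42199689 to 42297244), had 7.15, 6.93 and 6.17 CPM in Dox libraries, against 5.55, 4.07 and 4.57 CPM in NoDox libraries (log2 fold change 0.52 ± 0.13, adjusted p = 0.0023). For both genes the day 10 libraries lay above the 12 h NoDox libraries, at 7.33, 4.67 and 4.64 CPM for MYLIP and 10.3, 10.2 and 10.2 CPM for ABCG1. ABCA1, the exporter that loads apolipoprotein A-I, had 58.4, 49.6 and 36.1 CPM in Dox libraries, against 54.3, 58.9 and 55.8 CPM in NoDox libraries. Its groups overlapped and it did not pass the test (-0.22 ± 0.12, adjusted p = 0.135). NPC1, which exports cholesterol from lysosomes, fell by 0.39 ± 0.08 on the log2 scale.

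**Figure D2:**
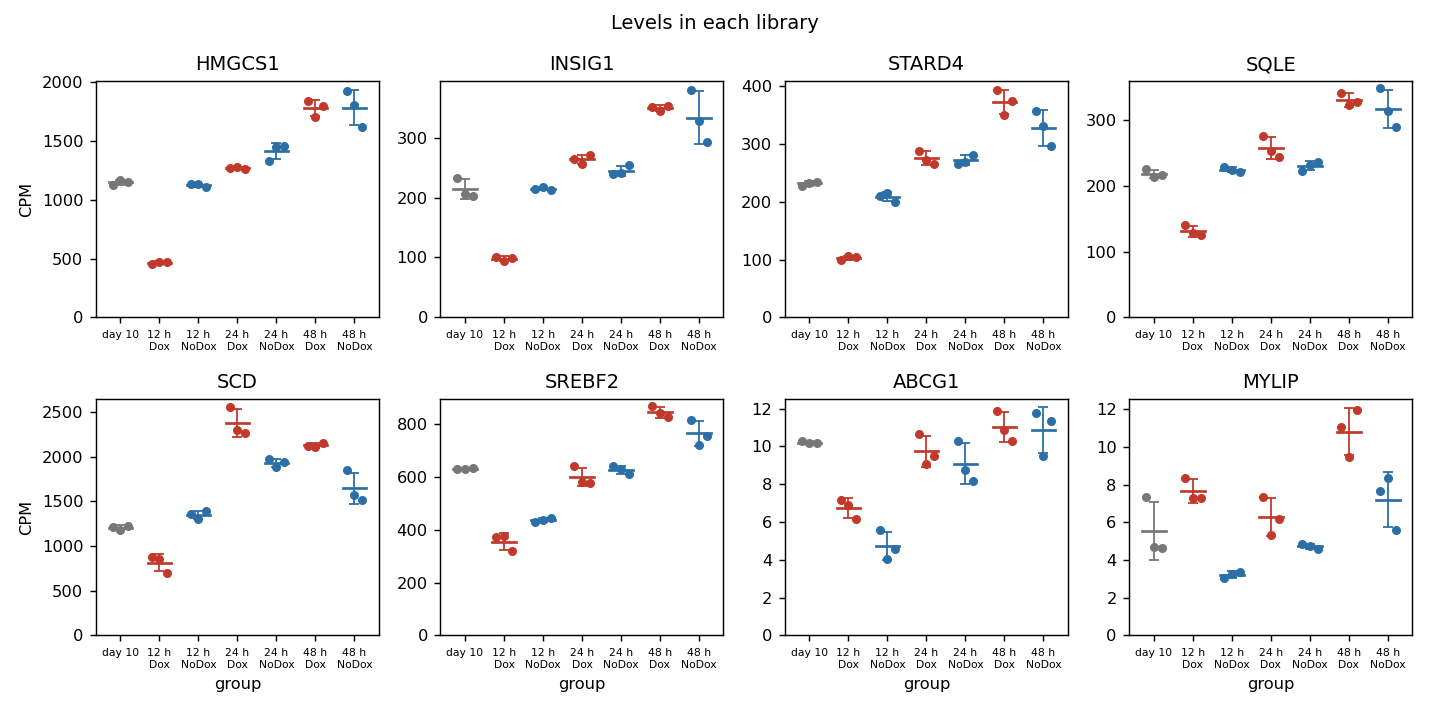
CPM of 8 members in each library (points), with the group mean (line) and SD (bars, n = 3), for day 10 and for Dox and NoDox cells at 12, 24 and 48 h. HMGCS1, INSIG1, STARD4, SQLE and SCD have their lowest libraries in the 12 h Dox group, while MYLIP has its lowest in the 12 h NoDox group.

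Other markers moved at 12 h as well. Of 12 LGE and telencephalic progenitor markers, 11 were lower in Dox cells and 1 did not pass. Their sum was 2630 to 2888 CPM in Dox libraries, against 6786 to 6832 CPM in NoDox libraries, with GSX1 at 0 in the Dox libraries. All 6 postmitotic neuron markers were lower, with sums of 836 to 1009 CPM in Dox libraries, against 1531 to 1763 CPM in NoDox libraries. Of 6 oligodendrocyte lineage markers 5 were tested and 3 were lower, with sums of 318 to 375 CPM in Dox libraries, against 793 to 846 CPM in NoDox libraries. Over all the marker lists, 37 markers were tested, of which 26 were lower and 2 higher. The lower ones included 2 of 2 tested neural crest markers and 2 of 2 tested pluripotent stem cell markers. The part of these shifts in the fall of the sterol genes was not tested. In bulk RNA, fewer cells of a type and less RNA per cell cannot be told apart.

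The TMM factors of the 12 h Dox libraries were 1.12 to 1.14, against 0.891 to 1.02 elsewhere. With scaling by library totals only, the counts were 20 lower and 3 higher. The median of the members was then -0.25, and that of all genes tested was 0.19. The distance between the medians was -0.43 under either scaling. A change of scaling moves all genes by about the same amount, so this distance cannot test the choice of scaling. MVK (-0.09), DHCR7 (-0.14), INSIG2 (-0.06), ACACA (-0.30) and both SREBP genes did not pass under that scaling.

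At 24 h, 12 h after the end of doxycycline, 13 of the 34 genes were higher in Dox than in NoDox cells and 0 were lower in edgeR's quasi-likelihood test. Among all genes tested 17% were higher and 16.9% lower. At an unadjusted p under 0.05, 1 member, HMGCS1, was lower. The median log2 fold change of the members was 0.15, against -0.00 for all genes tested. The genes that rose were 6 of 18 sterol enzymes, 6 of 7 fatty acid enzymes and SREBF1, and no gene of sterol movement passed. Dox libraries lay wholly above NoDox libraries for 20 members and wholly below for 3, against 25.9% and 26.1% of all genes tested. The DESeq2 Wald test called 1 gene lower, as did limma on the normalized counts and the fit without NoDox replicate 1.

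ACACA rose most. It had 308, 279.7 and 277 CPM in Dox libraries, against 174, 202 and 192 CPM in NoDox libraries, with every Dox library above (log2 fold change 0.61 ± 0.15, adjusted p = 0.00435). TM7SF2 had 66.1, 64.8 and 66.2 CPM in Dox libraries, against 43.7, 44.2 and 46.7 CPM in NoDox libraries (0.55 ± 0.08, adjusted p = 1.16e-06). It was the only member called higher at both 12 h and 24 h.

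DHCR7, which reduces 7-dehydrocholesterol to cholesterol (chromosome 11, 71428193 to 71452868), had 225, 210.4 and 209 CPM in Dox libraries, against 144, 151 and 155 CPM in NoDox libraries. The lowest Dox library stood far above the highest NoDox library (0.52 ± 0.07, adjusted p = 6.81e-07). NSDHL, a dehydrogenase of the C4 demethylation steps, had 44.4, 45.4 and 46.8 CPM in Dox libraries, against 36.3, 36.8 and 36.6 CPM in NoDox libraries (0.32 ± 0.07, adjusted p = 0.000632). Among fatty acid enzymes, SCD had 2552, 2303 and 2270.4 CPM in Dox libraries, against 1978, 1882 and 1938 CPM in NoDox libraries (0.30 ± 0.08, adjusted p = 0.00306). FASN (0.31), ACLY (0.29), FADS2 (0.29) and ELOVL6 (0.18) also rose, ELOVL6 not without NoDox replicate 1 (0.17), NoDox replicate 2 (0.19) or Dox replicate 1 (0.15), and FADS1, at 0.17 ± 0.08, did not pass.

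HMGCS1, INSIG1 and STARD4, which had fallen most at 12 h, were near the NoDox level at 24 h. FADS2, FASN and SCD, with falls of -0.75, -0.75 and -0.73 at 12 h, were instead called higher at 24 h. HMGCS1 had 1272, 1283 and 1266 CPM in Dox libraries, against 1334, 1453 and 1456 CPM in NoDox libraries. The groups did not overlap, yet the difference did not pass the test (-0.15 ± 0.06, adjusted p = 0.0619). INSIG1 had 265, 257 and 271 CPM in Dox libraries, against 239, 241 and 254 CPM in NoDox libraries (0.11 ± 0.07, adjusted p = 0.234). For STARD4 the groups overlapped, at 289, 272 and 266 CPM in Dox libraries, against 266, 269 and 282 CPM in NoDox libraries (0.02 ± 0.06).

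SQLE had 275, 253 and 244 CPM in Dox libraries, against 223, 232 and 236 CPM in NoDox libraries, and missed the threshold (0.16 ± 0.06, adjusted p = 0.0547). SREBF1 had 130.4, 139 and 142 CPM in Dox libraries, against 108, 108 and 115 CPM in NoDox libraries, and rose by 0.31 ± 0.07 (adjusted p = 0.00103). SREBF2 was at 641, 583 and 577 CPM in Dox libraries, against 643, 629 and 611 CPM in NoDox libraries, overlapping groups with a log2 fold change of -0.06 ± 0.07. ABCA1 also overlapped, at 86.4, 73.9 and 73.5 CPM in Dox libraries, against 69.4, 73.1 and 74.4 CPM in NoDox libraries. MYLIP was at 7.33, 5.35 and 6.19 CPM in Dox libraries, against 4.87, 4.74 and 4.61 CPM in NoDox libraries, wholly above but short of the threshold (0.41 ± 0.16, adjusted p = 0.0521).

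Of the 26 genes lower at 12 h, 11 were higher at 24 h and 15 did not pass there. The matching share among all genes lower at 12 h was not computed, so this count is not read as a trait of the members. The difference between the Dox effects at 24 h and at 12 h was tested in the same fit. It was positive for 25 members and negative for 1, MYLIP, against 16.1% and 14.8% of all genes tested, with a member median of 0.63 and a median of -0.02 over all genes. The difference was largest for INSIG1 (1.24 ± 0.10, adjusted p = 6.81e-11), HMGCS1 (1.12 ± 0.09, adjusted p = 4.58e-11) and ACACA (1.09 ± 0.21, adjusted p = 0.000795). All 7 fatty acid enzymes and 14 of 18 sterol enzymes had a positive difference. For MYLIP it was -0.84 ± 0.24 (adjusted p = 0.0073). Of 37 cell type markers tested, 23 had a positive difference and 1 a negative one. Both effects enter this difference, so it holds the 12 h and 24 h values already given. The count of negative differences was 2 without 12 h NoDox replicate 1, 12 h Dox replicate 3, 24 h NoDox replicate 3 or 24 h Dox replicate 1.

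The progenitor marker sum at 24 h was 6380 to 6682 CPM in Dox libraries, against 6393 to 6439 CPM in NoDox libraries, with 4 of 12 markers higher and 6 lower. The oligodendrocyte lineage sum was 749 to 899 CPM in Dox libraries, against 595 to 627 CPM in NoDox libraries, with 4 of 5 tested markers higher. A list of 5 mesenchyme and endothelium markers summed to 918 to 1341 CPM in Dox libraries, against 427 to 489 CPM in NoDox libraries, with 1 of 4 tested higher and 1 lower. Of 6 postmitotic neuron markers 5 were lower, with sums of 1316 to 1494 CPM in Dox libraries, against 1818 to 2066 CPM in NoDox libraries, and no overlap. The part of these differences in the 24 h results was not tested.

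**Figure D3:**
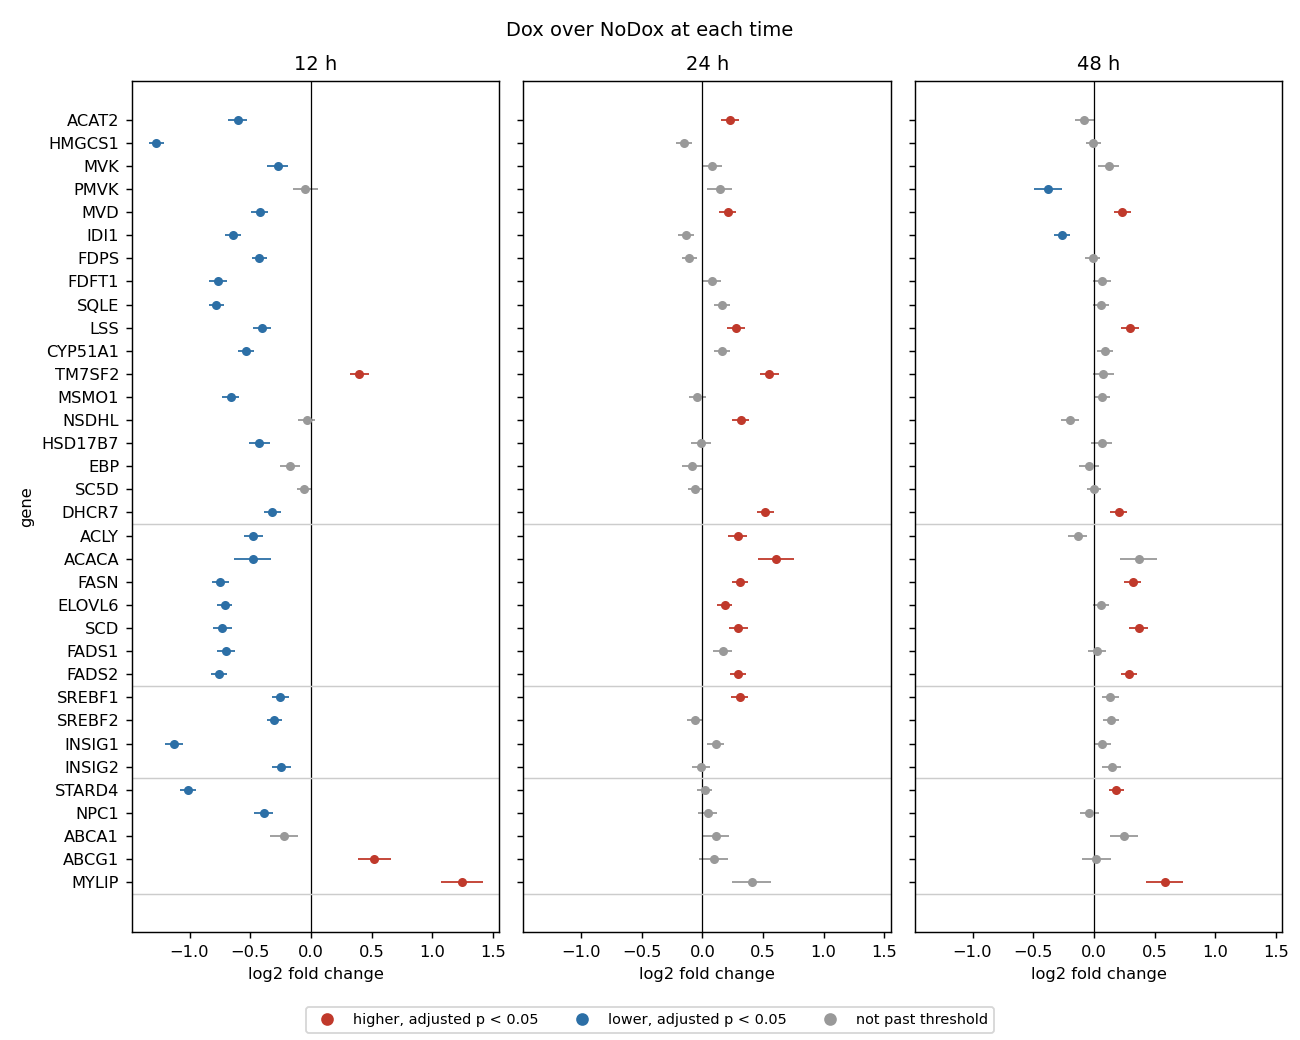
Log2 fold change of Dox over NoDox cells (x axis) for each of the 34 genes (y axis) at 12, 24 and 48 h, with bars for 1 approximate standard error and colours for genes past an adjusted p of 0.05. Points lie mostly left of 0 at 12 h, where 26 genes were lower, and right of 0 or on it at 24 h, where 13 were higher.

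At 48 h fewer members were called between Dox and NoDox cells than at 12 h or 24 h. Of the 34, 8 were higher (23.5%) and 2 lower (5.88%) in Dox cells. Among all genes tested the shares were 9.23% and 8.94%. The member median was 0.07. That median was 0.14 without NoDox replicate 1, 0.04 without NoDox replicate 3 or Dox replicate 1, and -0.01 with library totals only, where the median of all genes was -0.07. The genes that rose were 3 sterol enzymes, 3 fatty acid enzymes, STARD4 and MYLIP. The libraries were wholly above for 10 members and wholly below for 4, against 18.9% and 17.1% of all genes tested. The count higher was 4 without NoDox replicate 2, NoDox replicate 3 or Dox replicate 1, and 5 without Dox replicate 3. With scaling by library totals only, 5 were higher and 3 lower. The count lower was 0 without NoDox replicate 2 and 1 without NoDox replicate 3, Dox replicate 1 or Dox replicate 3.

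SCD and FASN were among the genes that passed at 48 h under every alternative run. SCD had 2117, 2110.4 and 2155 CPM in Dox libraries, against 1849, 1569.7 and 1520.5 CPM in NoDox libraries, a rise in every Dox library (0.37 ± 0.08, adjusted p = 0.000995). FASN had 2082, 1940.2 and 1933 CPM in Dox libraries, against 1696, 1429 and 1642 CPM in NoDox libraries (0.32 ± 0.07, adjusted p = 0.00131). LSS, lanosterol synthase, had 349.5, 304 and 324 CPM in Dox libraries, against 291, 239.7 and 265 CPM in NoDox libraries. LSS rose by 0.30 ± 0.07 (adjusted p = 0.00524), a call lost without NoDox replicate 2 (0.23) or Dox replicate 1 (0.24).

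MYLIP had 11.1, 9.45 and 11.9 CPM in Dox libraries, against 7.65, 8.38 and 5.60 CPM in NoDox libraries. The Dox libraries were all higher (0.58 ± 0.16, adjusted p = 0.00868), but the call was lost without NoDox replicate 3 (0.43) or Dox replicate 3 (0.50). IDI1, isopentenyl diphosphate isomerase, was lower in Dox cells at 12 h and again at 48 h, with 236, 246 and 227 CPM in Dox libraries, against 299, 297 and 254 CPM in NoDox libraries (-0.26 ± 0.07, adjusted p = 0.00699). It did not pass without NoDox replicate 2 (-0.23). PMVK, phosphomevalonate kinase, had 11.8, 13.9 and 11.3 CPM in Dox libraries, against 15.0, 16.3 and 16.8 CPM in NoDox libraries. Its fall of -0.38 ± 0.12 (adjusted p = 0.0226) was lost without NoDox replicate 2 (-0.37), NoDox replicate 3 (-0.34), Dox replicate 1 (-0.36) or Dox replicate 3 (-0.33).

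Of HMGCS1, INSIG1, STARD4, SQLE and FDFT1, which had the largest falls at 12 h, only STARD4 passed the test at 48 h. Next in size of fall at 12 h were FADS2, FASN and SCD (-0.75, -0.75 and -0.73). These genes were called higher at 48 h, at 0.29, 0.32 and 0.37. HMGCS1 had 1837, 1707 and 1795 CPM in Dox libraries, against 1924, 1807 and 1623 CPM in NoDox libraries, and INSIG1 had 352, 344 and 353 CPM in Dox libraries, against 381, 329 and 292 CPM in NoDox libraries. Both overlapped, with log2 fold changes of -0.00 ± 0.06 and 0.07 ± 0.07. SQLE (0.06 ± 0.06), SREBF1 (0.14 ± 0.07), SREBF2 (0.14 ± 0.07) and ABCA1 (0.25 ± 0.11) did not pass. STARD4 rose by 0.18 ± 0.06 (adjusted p = 0.0405), which was lost without NoDox replicate 2, NoDox replicate 3, Dox replicate 1 or Dox replicate 3, at 0.12 to 0.19. The STARD4 call was also lost with library totals only (0.11) and with no filter on low counts (0.18).

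Across the 3 times, DHCR7, FADS2, FASN, LSS, MVD and SCD were higher in Dox cells at both 24 h and 48 h, and ABCA1, EBP and SC5D passed the test at no time. Of these calls, MVD at 24 h was lost without NoDox replicate 1 (0.20), NoDox replicate 2 (0.21) or Dox replicate 3 (0.21). At 48 h MVD was lost without NoDox replicate 2 (0.15), NoDox replicate 3 (0.23) or Dox replicate 1 (0.16) and with library totals only (0.16). DHCR7 at 48 h was lost without any one library other than NoDox replicate 1 (0.15 to 0.21), with no filter on low counts (0.20) and with library totals only (0.13). The difference between the Dox effects at 48 h and at 24 h was negative for 6 members and positive for 0 in edgeR's test, against 13.1% and 12.7% of all genes tested. Its median was -0.01 over the members, against 0.00 for all genes tested. At an unadjusted p under 0.05, 1 member was positive, as 1 was without 48 h NoDox replicate 1, and DESeq2 and limma gave 0. The largest were PMVK (-0.52 ± 0.16, adjusted p = 0.0139), NSDHL (-0.51 ± 0.10, adjusted p = 0.000356) and TM7SF2 (-0.48 ± 0.11, adjusted p = 0.00249). At 48 h the progenitor marker sum was 9983 to 10486 CPM in Dox libraries, against 8437 to 9081 CPM in NoDox libraries. The oligodendrocyte lineage sum was 730 to 746 CPM in Dox libraries, against 493 to 545 CPM in NoDox libraries. Their part in the 48 h differences was not tested.

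Without doxycycline the system changed with time in culture. Day 10 libraries are shared by the 3 comparisons that follow, and the NoDox libraries are shared with the Dox comparisons, so these are given side by side. At 12 h, 7 members were higher and 7 lower in NoDox than in day 10 cells, against 15.5% and 16.3% of all genes tested. At 24 h, 12 were higher and 0 lower, against 8.84% and 8.47%, with 0 lower also at an unadjusted p under 0.05 and by DESeq2 and limma. At 48 h, 22 were higher and 4 lower, against 21.4% and 20.2%. The member medians were 0.01, 0.14 and 0.28, and the first ran from 0.00 to 0.04 with 1 library left out. Libraries lay wholly above and wholly below for 10 and 10 members at 12 h, 16 and 0 at 24 h, and 19 and 4 at 48 h. Among all genes tested these shares were 21.3% and 22.5%, 17.5% and 18.5%, and 24.6% and 23.4%. Without day 10 replicate 1 the counts higher and lower were 6 and 6, 13 and 0, and 21 and 3. The 12 h count higher was 4 without day 10 replicate 3, NoDox replicate 1 or NoDox replicate 3.

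Cell type markers moved over the same time. Of 6 postmitotic neuron markers 2 were higher at 12 h, 5 at 24 h and 4 at 48 h, where 1 was lower. Their sums were 1531 to 1763 CPM in 12 h NoDox libraries, 1818 to 2066 CPM in 24 h NoDox libraries and 1756 to 2076 CPM in 48 h NoDox libraries, against 1333 to 1366 CPM at day 10. The progenitor sum was 6786 to 6832 CPM in 12 h NoDox libraries, 6393 to 6439 CPM in 24 h NoDox libraries and 8437 to 9081 CPM in 48 h NoDox libraries, against 6125 to 6341 CPM at day 10. Of its 12 markers 1, 5 and 3 were higher and 2, 1 and 4 lower at 12 h, 24 h and 48 h. The oligodendrocyte lineage sum was 493 to 545 CPM in 48 h NoDox libraries, against 860.0 to 893 CPM at day 10, with 1 of 5 tested markers higher and 1 lower. The mesenchyme and endothelium sum was 771 to 851 CPM in 12 h NoDox libraries, 427 to 489 CPM in 24 h NoDox libraries and 839.8 to 1047 CPM in 48 h NoDox libraries, against 404 to 542 CPM at day 10, with 3 of 4 tested markers higher at 48 h. Their part in the uninduced changes was not tested.

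INSIG2, which holds SCAP as INSIG1 does (chromosome 2, 118088452 to 118110997), rose at each time without doxycycline. It had 52.0, 39.4 and 42.8 CPM at day 10, 66.0, 65.3 and 67.3 CPM at 12 h, 90.5, 82.6 and 84.7 CPM at 24 h and 95.8, 102 and 89.3 CPM at 48 h. No later NoDox library overlapped day 10, and the log2 fold changes over day 10 were 0.57 ± 0.08, 0.95 ± 0.08 and 1.11 ± 0.08. FADS2 and HSD17B7 were also called higher at all 3 times. At 12 h that of FADS2 was lost, at 0.18 to 0.20, without day 10 replicate 2 or 3 or any NoDox replicate, and that of HSD17B7, at 0.19 to 0.26, without day 10 replicate 1 or 3 or NoDox replicate 1 or 3. The 12 h call of HSD17B7 was also lost with only the groups compared (0.27). At 48 h the call of FADS2 was lost without NoDox replicate 1 (0.16), with library totals only (0.14) and with only the groups compared (0.20).

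SREBF2 was lower at 12 h, near the day 10 level at 24 h and higher at 48 h, with 632, 629 and 634 CPM at day 10, 430.2, 437 and 446 CPM at 12 h, 643, 629 and 611 CPM at 24 h and 817, 723 and 757 CPM at 48 h. Its log2 fold changes were -0.53 ± 0.07 (adjusted p = 4.06e-07), -0.01 ± 0.07 and 0.28 ± 0.07. MYLIP, FDPS, MSMO1 and NPC1 were likewise called lower at 12 h and higher at 48 h. The 12 h call of MSMO1 was lost without day 10 replicate 1 (-0.13), NoDox replicate 2 (-0.21) or NoDox replicate 3 (-0.19), and that of NPC1 without day 10 replicate 2 (-0.18), day 10 replicate 3 (-0.22) or NoDox replicate 1 (-0.19). The 48 h call of NPC1 was lost without day 10 replicate 1 (0.17) or NoDox replicate 2 (0.21) and with library totals only (0.16). MYLIP changed by -0.74 ± 0.18 at 12 h and 0.42 ± 0.17 at 48 h. The 48 h call of MYLIP (adjusted p = 0.0463) was lost in 8 of 13 alternatives. ABCG1 fell at 12 h (-1.11 ± 0.13, adjusted p = 1.88e-07), with 5.55, 4.07 and 4.57 CPM in NoDox libraries, against 10.3, 10.2 and 10.2 CPM at day 10, and ABCA1 fell by 0.39 ± 0.11 on the log2 scale, a call lost without day 10 replicate 3 (-0.32). ACAT2, the cytosolic acetoacetyl-CoA thiolase, rose at 12 h (0.51 ± 0.08) and TM7SF2 rose by 0.42 ± 0.08.

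At 24 h MVD, mevalonate diphosphate decarboxylase, rose by 0.51 ± 0.07, and SCD rose by 0.68 ± 0.08 (adjusted p = 3.68e-07). SCD had 1978, 1882 and 1938 CPM at 24 h, against 1215, 1178 and 1227 CPM at day 10, with no overlap. At 48 h MSMO1 rose by 0.89 ± 0.07 and MVD by 0.74 ± 0.07, and HMGCS1, INSIG1 and SQLE rose by 0.64 ± 0.06, 0.64 ± 0.07 and 0.54 ± 0.07. Against that direction, TM7SF2 (-0.56 ± 0.08), ACLY (-0.34 ± 0.08), SREBF1 (-0.27 ± 0.07) and ACAT2 (-0.22 ± 0.08) fell at 48 h. The ACAT2 call was lost without day 10 replicate 1 (-0.16) or NoDox replicate 3 (-0.15).

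**Figure D4:**
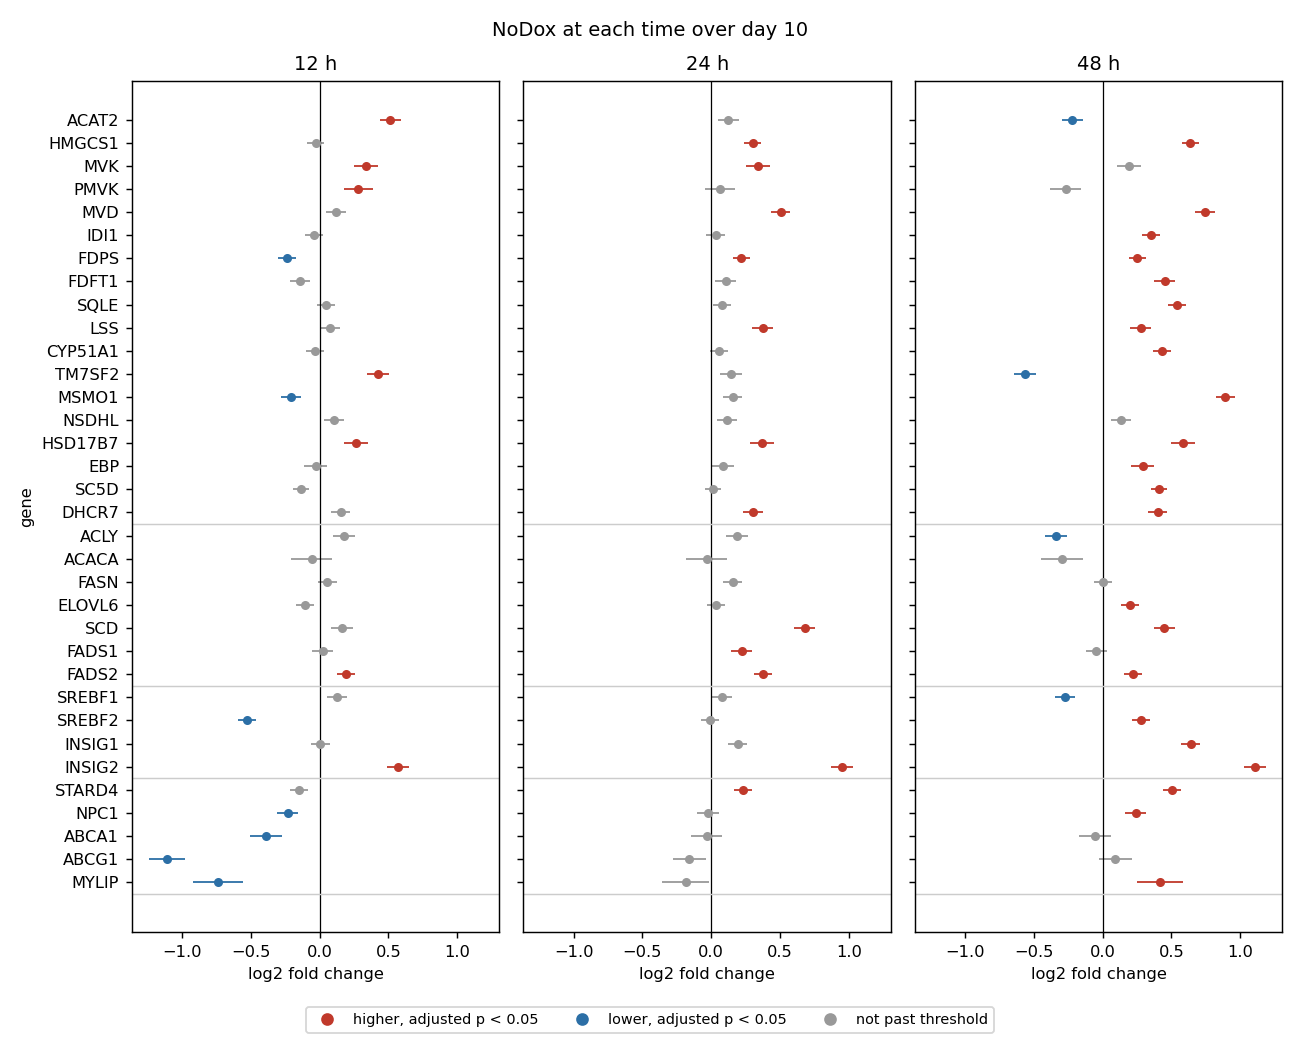
Log2 fold change of NoDox cells at 12, 24 and 48 h over day 10 cells (x axis) for each of the 34 genes (y axis), with bars for 1 approximate standard error and colours for genes past an adjusted p of 0.05. INSIG2 is at 0.57, 0.95 and 1.11, and ABCG1 and MYLIP lie far left at 12 h.

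Levels per length, in TPM over the exon length in the count table, allow the members to be ordered. TPM carries no TMM factor, so a group difference in TPM can depart, even in direction, from that in CPM. At 48 h the TMM factors were 0.891 to 0.910 in Dox libraries, against 0.939 to 0.958 in NoDox libraries. Averaged over the 21 libraries, SCD was the most abundant member at 1320 TPM, followed by HMGCS1 at 814, FASN at 764 and FDFT1 at 548 TPM. Over libraries SCD ranged from 599 to 2112 TPM, HMGCS1 from 319 to 1163 TPM and FASN from 435 to 1028 TPM, so these neighbours in the order overlapped. The lowest were MVK at 17.6, MYLIP at 8.96 and ABCG1 at 6.17 TPM. Summed over the 18 sterol enzymes, the level was 2551 ± 61.1 TPM in 12 h Dox cells, against 3525 ± 62.0 TPM in 12 h NoDox cells (SD, n = 3). At 24 h it was 4166 ± 19.7 TPM in Dox cells, against 4130 ± 116 TPM in NoDox cells, and at 48 h 4364 ± 108 TPM in Dox cells, against 4507 ± 294 TPM in NoDox cells. For the 7 fatty acid enzymes, the sum was 2032 ± 323 TPM in 12 h Dox cells, against 2948 ± 50.3 TPM in 12 h NoDox cells. At 24 h it was 4454 ± 179 TPM in Dox cells, against 3698 ± 67.8 TPM in NoDox cells, and at 48 h 3361 ± 82.2 TPM in Dox cells, against 2894 ± 194 TPM in NoDox cells. The large SD at 12 h in Dox cells comes with the low values of replicate 3.

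A wider list of 59 genes around the members (sterol sensing, other SREBP targets, LXR and oxysterols, traffic and isoprenoids), of which 58 were tested, was counted beside them. In Dox cells 19 of the 58 were higher and 11 lower at 12 h, against 19.8% and 19.9% of all genes tested, so the count lower was near the background. At 24 h 19 were higher and 6 lower, against 17% and 16.9%, and at 48 h 3 were higher and 3 lower, against 9.23% and 8.94%. By sublist at 12 h there were 3 higher and 5 lower among 17 other SREBP targets, and 7 higher and 1 lower among 11 tested genes of LXR, efflux and oxysterols. No test of a difference between lists was made. At 12 h the largest rises were of ABCG4, a neural sterol transporter (1.53 ± 0.18), FADS3, a desaturase (0.87 ± 0.08), ME1, malic enzyme (0.84 ± 0.12), and ACACB, the mitochondrial acetyl-CoA carboxylase (0.56 ± 0.12). ABCG4 was at 4.67 ± 1.04 CPM in Dox cells, against 1.63 ± 0.272 CPM in NoDox cells (n = 3). The largest falls were of CYP46A1, the neuronal cholesterol 24-hydroxylase (-0.82 ± 0.13), TMEM97, an endoplasmic reticulum sterol-binding protein (-0.54 ± 0.06), ELOVL5, an elongase (-0.39 ± 0.05), and GRAMD1A, a sterol transporter of membrane contacts (-0.29 ± 0.06). Of the machinery that releases SREBP, MBTPS1 (0.26 ± 0.05) rose, and SCAP (0.13 ± 0.06) and MBTPS2 (-0.05 ± 0.08) did not pass.

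At 24 h the list's largest rises were of PDSS1, LPCAT3, LIPA and ERLIN1 (0.62 ± 0.15, 0.56 ± 0.09, 0.44 ± 0.07 and 0.39 ± 0.07), which act in coenzyme Q synthesis, phospholipid remodelling, lysosomal ester hydrolysis and INSIG-linked degradation. CYP46A1 fell again, with 4.68 ± 0.280 CPM in Dox cells, against 8.09 ± 0.754 CPM in NoDox cells (n = 3, log2 fold change -0.79 ± 0.14). CYP7B1, an oxysterol hydroxylase (-0.67 ± 0.15), ABCA5 (-0.46 ± 0.10) and VLDLR, a lipoprotein receptor (-0.43 ± 0.07), also fell. SCAP rose by 0.31 ± 0.06. At 48 h OSBPL2 (0.28 ± 0.07), STARD3 (0.26 ± 0.07) and TMEM97 (0.22 ± 0.06) rose, and DOLK (-0.55 ± 0.17), GRAMD1C (-0.54 ± 0.12) and GGPS1 (-0.26 ± 0.09) fell.

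Some counts carry an uncertainty of assignment, since the strand setting of the counting is not given in the sources used here. Exons of 18 members overlap another feature, and for 9 of them the partner held at least 10% of the member's own reads. These were ACAT2, CYP51A1, EBP, FADS1, FADS2, MVK, NPC1, SREBF1 and TM7SF2. CYP51A1 shares 68.2% and 67.8% of its length with a pair of unnamed features on its own strand. EBP shares 36.4% with 1 such feature. HSD17B7 has a near copy, HSD17B7P2, with 3241 reads over all libraries. HMGCS1, INSIG1, SCD and SQLE had no partner with at least 10% of their reads. An unnamed feature on the opposite strand, with 60 reads, still overlaps 37.7% of the length of HMGCS1. Whether reads in shared bases were left uncounted was not tested.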

How the data were processed

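Deposited values were whole-number counts of reads per gene, made by the authors on hg38. STAR 2.7.9 and Subread 2.0.3 are listed, according to the submitters' processing notes. The authors also deposited normalized counts, a signal equal to the count over 1 factor per library, listed for 19874 features. DESeq2 is among the tools the authors name. Neither the annotation nor the strandedness used is stated in the labels or headers. Length and coordinates came with the deposited counts.

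Counts were fitted with edgeR 4.0.16 in R 4.3.3 (TMM scaling, filterByExpr, robust quasi-likelihood F test, all 7 groups, 14 residual degrees of freedom), with Benjamini-Hochberg adjustment over all 19655 features tested, at 0.05. These hold 99.92% of the counts, and the common biological coefficient of variation was 7.24%. An approximate SE (±, n = 3 per group) was taken as the log2 fold change, unsigned, divided by the square root of F. There were 8 comparisons. CPM is the count per M reads of scaled library size, and TPM uses the deposited length without TMM scaling. All depths and floors cover counting error only.

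The members and lists were chosen with earlier results of these data known. Members chosen to be named were SREBF1, SREBF2, INSIG1, HMGCS1, SQLE, SCD and ABCA1, the 4 largest called changes each way in a Dox comparison, and the 3 largest each way in the other comparisons. In some comparisons they are given by fold change alone, without the value of each library. Of the wider list, up to 4 each way were named per Dox comparison; MBTPS1, MBTPS2 and SCAP were named after their values were seen. Promoters and motifs used RefSeq sequences.

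Alternatives were DESeq2 size factors, library totals, the DESeq2 1.42.0 Wald test, no filter, limma 3.58.1 on log2 of the deposited normalized count + 1, only the groups compared, a replicate block and each replicate left out. The procedure was tested on simulated data for the 12 h Dox comparison with 19655 genes. It recovered 80% of 100 genes changed by 0.5 and 99% of 100 changed by 1 on the log2 scale, with 12 false calls. No other genes were changed, rises and falls were balanced, and no library was made to stand apart. The real comparison had 19.9% of genes lower and 19.8% higher, so these rates do not describe it.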

Additional observations from a re-analysis of the deposited data

Results flagged for a closer look

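The change of the Dox effect between times was tested in edgeR's fit for every member, and those past an adjusted p of 0.05 are listed as log2 differences with n = 3 libraries in each of 4 groups. Between 12 h and 24 h the Dox effect on the early sterol enzymes became higher for ACAT2 by 0.83, HMGCS1 by 1.12, MVK by 0.35, MVD by 0.63, IDI1 by 0.51 and FDPS by 0.32. From squalene onwards it became higher for FDFT1 by 0.84, SQLE by 0.94, LSS by 0.68, CYP51A1 by 0.70, MSMO1 by 0.62, NSDHL by 0.35, HSD17B7 by 0.42 and DHCR7 by 0.84. Among fatty acid enzymes it became higher for ACLY by 0.77, ACACA by 1.09, FASN by 1.06, ELOVL6 by 0.90, SCD by 1.03, FADS1 by 0.87 and FADS2 by 1.04. The regulators SREBF1 and INSIG1 gave 0.56 and 1.24, and STARD4 and NPC1 gave 1.03 and 0.43. MYLIP was the exception in sign, at -0.84. With library totals only, MVK (0.16), FDPS (0.13), NSDHL (0.16), HSD17B7 (0.22) and NPC1 (0.24) did not pass. MVK was also lost without 12 h NoDox replicate 3 (0.33), 24 h NoDox replicate 1 (0.29), 24 h Dox replicate 1 (0.33) or 24 h Dox replicate 3 (0.34).

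Between 24 h and 48 h the Dox effect became lower for ACAT2 (-0.30), PMVK (-0.52), TM7SF2 (-0.48), NSDHL (-0.51), DHCR7 (-0.31) and ACLY (-0.42). Thus 17.6% of the members had a negative difference, against 13.1% of all genes tested, and 0% a positive one, against 12.7%. The member median was -0.01, against 0.00 for all genes tested. PMVK was higher in neither comparison and lower in Dox cells at 48 h, while the other 5 had been called higher in Dox cells at 24 h. The ACAT2 difference was lost in 7 of 19 alternatives, each leaving out 1 library, at -0.24 to -0.32, and that of DHCR7 without 24 h NoDox replicate 1 (-0.28), 24 h Dox replicate 1 (-0.28) or 48 h NoDox replicate 1 (-0.25). The 24 h call of ACAT2 was itself lost without NoDox replicate 1 (0.20), Dox replicate 2 (0.22) or Dox replicate 3 (0.20).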

How the results depend on the processing

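Of 136 called member values, recomputed 1960 times over all alternatives, 1842 stayed past the threshold, 118 kept their direction without passing and 0 reversed. Of the 118, 90 came from leaving out 1 replicate and 18 from scaling by library totals. At 12 h, 23 of the 29 Dox calls passed under every alternative, at 24 h 10 of 13 and at 48 h 3 of 10. For 24 h Dox against NoDox, library totals only, the DESeq2 Wald test and limma on the deposited normalized counts each gave 1 member lower, and the fit of only the groups compared gave 3 lower and 18 higher. For 48 h, library totals only gave 5 higher. For the difference between 24 h and 12 h, library totals only and the replicate block each gave 2 negative, and for that between 48 h and 24 h, the fit of only the groups compared gave 1 positive. The cause was not tested, beyond the fewer residual degrees of freedom or other scaling that each alternative has by construction.

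With 1 replicate left out, the counts higher and lower ran from 3 to 3 and 25 to 27 for Dox at 12 h, 10 to 13 and 0 to 1 at 24 h, and 4 to 8 and 0 to 3 at 48 h. Over day 10 they ran from 4 to 6 and 5 to 6 for NoDox at 12 h, 8 to 13 and 0 to 0 at 24 h, and 19 to 22 and 3 to 5 at 48 h. For the differences they ran from 24 to 28 and 1 to 2, then 0 to 1 and 4 to 6.

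Same-numbered replicates gave residual correlations of 0.105, 0.072 and -0.065 at 12 h, 0.204, 0.064 and 0.078 at 24 h, and 0.22, 0.159 and 0.075 at 48 h between Dox and NoDox. The same-numbered NoDox library was the best match for Dox replicate 1 at 12 h and for replicates 1 and 3 at 24 h. At 48 h it was the best match for each Dox replicate. The labels do not say whether same-numbered libraries share a culture, and these values do not settle it. With the replicate block the counts higher and lower were 3 and 26, 16 and 0, and 8 and 2, and no called member was lost. Depth limits mainly MYLIP, ABCG1 and other members of few reads.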
